A study of Mus musculus with 15 samples.

Results

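The keratins are the rows of the deposited count table whose symbol is Krt followed by a number and at most 1 letter. They are 54 of 56859 genes, 27 on mouse chromosome 11 and 27 on chromosome 15. By the tissue they are known from, 5 are keratins of simple epithelium, 16 of squamous epithelium (3 basal, 4 mucosal, 5 cornified and 4 stress keratins), 26 of hair shaft and root sheath and 7 others. The table holds total RNA from mouse colon in 15 libraries, 3 in each of 5 groups, from male C57BL/6J mice aged 6 to 10 weeks. The protocol given for every library starts with AOM, the carcinogen azoxymethane, at 10 mg/kg on day 0. It goes on with 2.5% DSS, dextran sulfate sodium, in the drinking water on days 7 to 11, 28 to 32 and 49 to 53. In the APX3330 group, APX3330 at 25 mg/kg was injected into the peritoneum on the DSS days. The labels give no sampling day for this group and its titles name no cycle. How many of the DSS courses came before its sampling therefore cannot be told. The saline groups had saline injected in place of APX3330 and carry day 27 (D27), day 48 (D48, titled cycle 1) and day 100 (D100, titled cycle 2). By the days given, D27 follows the first course of DSS, D48 the second and D100 the third. The Control group is labelled as wild type, while the protocol given for every library says that all mice received AOM, so what the Control mice received cannot be told from the labels. The labels do not state outright that the 3 libraries of a group came from separate animals, and p-values measure the spread between libraries.

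Keratins are the intermediate filament proteins of epithelial cells. Each filament pairs an acidic type I keratin with a basic type II keratin, so both kinds are made together. Single-layered epithelia such as that of the colon use the type II keratin Krt8, with Krt7 in ducts and in lining epithelia, and the type I partners Krt18, Krt19 and Krt20. Stratified epithelia use Krt5 and Krt14 in the basal layer, and above it Krt1 and Krt10 where the surface cornifies, as in skin, or Krt4 and Krt13 where it stays moist, as in the oesophagus. Krt6a, Krt6b, Krt16 and Krt17 are made in hair follicles and in stressed or wounded epidermis, and a further set builds the hair shaft and its root sheath.

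The promoters of the simple keratins Krt8, Krt7, Krt18 and Krt20 are printed because their windows differ in the motif matches marked. In the main test below, Krt7 and Krt18 were called in some comparisons and Krt8 and Krt20 in none. Krt19 was called there and is not printed. The windows of Krt5 and Krt14 hold none of these matches and are not printed. Krt8 and Krt18 are the partner pair of simple epithelium and lie near each other, with the Krt8 window at chr15:102004293-102004592 on the minus strand and the Krt18 window at chr15:102027966-102028265 on the plus strand. The Krt7 window is at chr15:101412153-101412452 on the plus strand and the Krt20 window at chr11:99438104-99438403 on the minus strand. The sequences are RefSeq's for GRCm38.p6, from 250 bases before to 50 bases after the start that RefSeq gives, written 5′ to 3′ on the strand of the gene. GENCODE M21, used for gene positions and lengths, gives other starts for some of these genes. It starts Krt8 at chr15:102004482, further upstream within the window, and Krt7 at chr15:101411043, upstream of the window. Capitals mark matches to the TATA box TATAAA and the GC box GGGCGG on either strand, where CCGCCC is the second motif read on the other strand and the run in Krt8 holds 2 overlapping TATA matches, 1 on each strand.
Krt8: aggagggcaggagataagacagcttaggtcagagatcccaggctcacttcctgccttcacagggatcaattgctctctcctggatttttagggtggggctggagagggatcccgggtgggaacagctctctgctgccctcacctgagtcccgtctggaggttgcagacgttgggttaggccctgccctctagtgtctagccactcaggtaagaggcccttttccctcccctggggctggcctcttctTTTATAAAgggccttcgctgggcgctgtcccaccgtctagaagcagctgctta
Krt7: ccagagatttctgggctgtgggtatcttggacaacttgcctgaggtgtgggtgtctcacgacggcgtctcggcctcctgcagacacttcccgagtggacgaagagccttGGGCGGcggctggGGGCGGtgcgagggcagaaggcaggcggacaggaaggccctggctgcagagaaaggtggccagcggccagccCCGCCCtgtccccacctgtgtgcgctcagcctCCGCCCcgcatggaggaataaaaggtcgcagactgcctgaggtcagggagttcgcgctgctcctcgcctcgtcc
Krt18: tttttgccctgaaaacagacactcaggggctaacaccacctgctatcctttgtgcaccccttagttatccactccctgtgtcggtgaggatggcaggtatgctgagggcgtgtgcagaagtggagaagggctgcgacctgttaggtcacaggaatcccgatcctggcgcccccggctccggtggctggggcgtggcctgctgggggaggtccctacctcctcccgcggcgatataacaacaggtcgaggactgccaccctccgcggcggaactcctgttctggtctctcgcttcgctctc
Krt20: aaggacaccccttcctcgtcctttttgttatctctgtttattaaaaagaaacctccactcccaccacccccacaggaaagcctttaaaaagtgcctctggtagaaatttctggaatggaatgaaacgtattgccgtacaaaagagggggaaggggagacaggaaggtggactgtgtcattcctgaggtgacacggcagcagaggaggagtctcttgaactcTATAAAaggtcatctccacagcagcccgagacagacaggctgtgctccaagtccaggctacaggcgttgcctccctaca
Counted from RefSeq's start, the Krt20 window has TATAAA 29 bases before it and Krt8 has TATAAA at the start itself. Krt7 has 4 GC boxes between 141 and 24 bases before that start. The Krt18 window holds neither motif in these letters. Over the 37 promoter entries found for 36 of the 54 keratins, 51.4% (19) held TATAAA, against 13.6% of all 32851 promoters. For GGGCGG the shares were 5.41% (2) and 35.7%. For the AP-1 motif TGANTCA, also read on both strands, they were 5.41% (2) and 7.81%. Letters matched in a window are a description and no site of binding.

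Library totals ran from 13548661 to 17919613 counts. Levels are given as CPM, a library's counts scaled to a common depth with TMM factors. The genes that define colonic epithelium were present in every library, with summed levels of 7346 to 10055 CPM in APX3330, 8455 to 8994, 7804 to 9090.4 and 8057 to 8726 CPM in saline D27, D48 and D100, and 10422 to 11766 CPM in Control. Some libraries stood apart by transcripts of other tissues. The squamous keratins were abundant in saline D48 replicate 2, saline D100 replicate 1 and Control replicates 1 and 3. The 6 skeletal muscle genes listed summed to 1726 and 780.4 CPM in Control replicates 1 and 3 and to 15.8 CPM in Control replicate 2. Genes of pancreatic acinar cells summed to 30699 and 7348 CPM in saline D48 replicates 2 and 3 and to 6.48 CPM in replicate 1. Hoxd13, a homeobox gene of the hindgut whose level follows position along the gut, spanned 72.9 to 137 CPM in APX3330, 86.6 to 93.6, 78.9 to 107 and 46.4 to 97.6 CPM in saline D27, D48 and D100, and 225 to 249.9 CPM in Control. Genes of goblet cells, the mucus cells of the crypt, summed to 46980.4 to 77307 CPM in APX3330, 50548 to 63275, 26356 to 49316 and 57305 to 81853 CPM in saline D27, D48 and D100, and 9739 to 10707 CPM in Control. The part of these differences in the results below was not tested, except where values without such libraries are given. In whole tissue, fewer cells of a type and less RNA per cell cannot be told apart.

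Simple keratins made up almost all keratin RNA of the colon. They held from 83.6% to 99.6% of the keratin counts (median 99.5% over 15 libraries), and keratins held 0.524% to 0.870% of all counts. Per kilobase of principal transcript, Krt8 led with a mean of 1763 CPM per kb over the 15 libraries. Its main partner Krt19 followed with 1394 CPM per kb, and within a library it stood at 0.711 to 0.857 times Krt8. Krt20, made by differentiated cells of the surface, had 325 CPM per kb and Krt18 293 CPM per kb, with ranges of 136 to 439.6 and 214 to 361 CPM per kb that overlapped. Krt7 was lowest with 36.3 CPM per kb. Its annotated transcript is 4094 bases long against 1437 to 1958 bases for the other 4, and per kilobase of coding sequence Krt7 stood at 108 and Krt18 at 332 CPM per kb, so the order held at the lower end. Summed per length, type I simple keratins were 1.07 ± 0.0407 times type II in APX3330, 1.09 ± 0.0288, 1.14 ± 0.0569 and 1.17 ± 0.0135 times in saline D27, D48 and D100, and 1.13 ± 0.0226 times in Control (SD, n = 3 each).

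**Figure D1:**
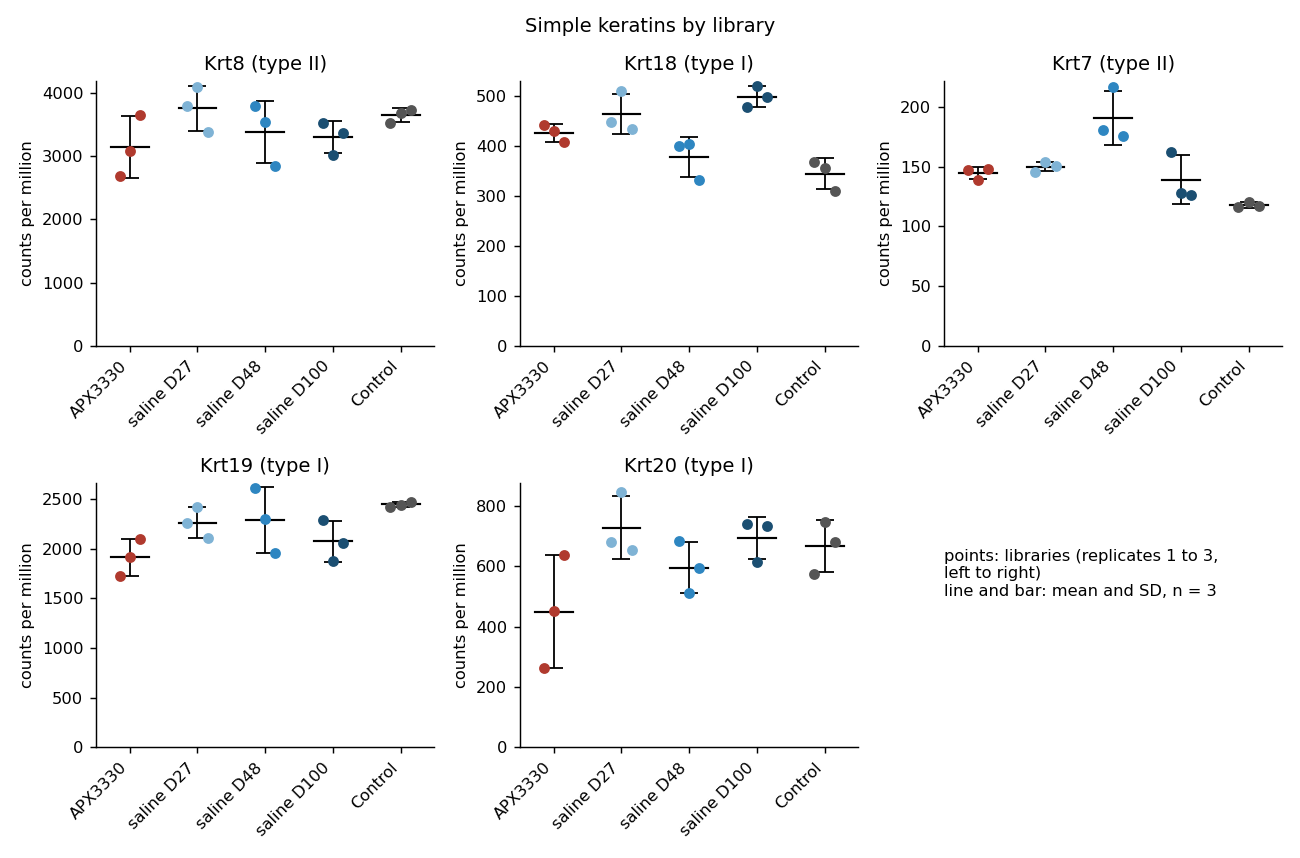
Levels of the 5 simple keratins in CPM (vertical axes, from 0) by group; points are libraries in the order of replicates 1 to 3, lines and bars the mean and SD of 3. Krt7 is highest at saline D48 and Krt18 at saline D100, Krt8 overlaps between most groups, and the 3 APX3330 libraries of Krt20 spread from 261 to 638 CPM.

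Of the simple keratins, Krt7 and Krt18 were called in several comparisons and Krt19 in APX3330 against Control alone. Most other calls were of squamous keratins carried by a few libraries. By edgeR's quasi-likelihood test over 18038 genes (adjusted p below 0.05), 25 keratins were tested, and the other 29 had too few counts to pass the filter. In APX3330 against Control 10 were lower and none higher, where 8.18% of all genes tested were called lower and 7.16% higher. At D27 against Control 2 were higher and 9 lower, where 10.2% of genes were called higher and 9.36% lower. At D48 against Control 3 were higher and 7 lower, beside 14.3% of genes higher and 13.0% lower. At D100 against Control 1 was higher and 5 were lower, beside 11.4% of genes higher and 10.5% lower. These 4 comparisons share the 3 Control libraries. The squamous keratins among the lower ones passed the filter on low counts through the few libraries that carry them, so their share says nothing of the keratins as a class. Without Control replicates 1 and 3 and saline D100 replicate 1, which leaves 1 Control library, no keratin was called in APX3330, D27 or D100 against Control, and Krt7 and Krt90 alone were called at D48, both higher.

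Among the treated groups, APX3330 against saline D48 had 4 keratins lower and none higher (10.3% of genes lower, 9.41% higher), namely Krt7, Krt36, Krt84 and Krt90. Without saline D48 replicates 2 and 3, which leaves 1 D48 library, no keratin was called in APX3330 or D100 against D48. No keratin passed in APX3330 against saline D27 (9.08% of genes called), where 1 had an unadjusted p below 0.05 and DESeq2 called 2, Krt20 and Krt6a. None passed in APX3330 against saline D100 (0.504% of genes called), where 12 had an unadjusted p below 0.05 and DESeq2 called 5, Krt1, Krt5, Krt6a, Krt13 and Krt14. None passed at D100 against D27 (3.08% called), where 7 had an unadjusted p below 0.05 and DESeq2 called 4, Krt4, Krt5, Krt13 and Krt14. At D48 against D27 Krt90 alone was called, 1 keratin higher (0.854% of genes higher, 0.499% lower), while DESeq2 called 2, Krt7 and Krt36. At D100 against D48 Krt18 was higher and Krt7, Krt36 and Krt90 were lower (7.20% of genes higher, 6.40% lower). Over all 5 groups at once, 16 of the 25 tested keratins differed, where 37.3% of all genes did. The filter bears on this count in the same way, and nothing is read from it.

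Krt8, the type II keratin of all simple epithelia, did not pass in any of the 10 comparisons. It stood at 2687, 3086 and 3662 CPM in APX3330. The saline libraries held 3801, 4099 and 3382 CPM at D27, 3792, 3538 and 2846 CPM at D48 and 3525, 3028 and 3365 CPM at D100. Control libraries held 3529, 3689 and 3739 CPM. The 3 D100 libraries lay just below the 3 of Control, and the other pairs of groups overlapped. Over the 5 groups the adjusted p of edgeR was 0.374. The largest fitted difference was APX3330 against saline D27 (log2 -0.26, SE 0.126, adjusted p = 0.201). Reads of the antisense gene Gm36026 that overlaps Krt8 could not be separated, since the strand setting of the counting is not given.

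Krt7, the type II keratin of ducts and lining epithelia, rose at D48. The APX3330 libraries had 147, 139 and 148 CPM. Saline D27 had 146, 154 and 151 CPM, D48 180.4, 217 and 176 CPM and D100 163, 128 and 126 CPM, and Control had 116, 121 and 117 CPM. All 3 D48 libraries lay above every other library, and all 12 treated libraries lay above the 3 of Control. Krt7 was higher at D48 (log2 0.70, SE 0.104, adjusted p = 0.000260) and at D27 (log2 0.35, adjusted p = 0.0283) than in Control, and lower in APX3330 (log2 -0.40, adjusted p = 0.0148) and at D100 (log2 -0.46, adjusted p = 0.00945) than at D48. APX3330 against Control did not pass (log2 0.30, adjusted p = 0.0647), though by DESeq2 it did (adjusted p = 0.0413). D100 against Control did not pass by either tool (log2 0.24, adjusted p = 0.116 by edgeR).

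The D48 rise against Control kept its call in each alternative run, with log2 0.62 and adjusted p = 0.0110 without saline D48 replicates 2 and 3, the libraries with pancreatic transcripts. That fit has 1 D48 library, which is assumed to vary like the other groups, as is the 1 Control library left in the fits without squamous libraries. The D27 call was lost when any 1 of the 6 libraries was left out (adjusted p from 0.0544 to 0.0907), and APX3330 against D48 lost its call without APX3330 replicate 2 (log2 -0.37, adjusted p = 0.0603) or saline D48 replicate 2 (log2 -0.31, adjusted p = 0.0512), and D100 against D48 lost it without saline D100 replicate 3 (log2 -0.39, adjusted p = 0.0525). With saline D48 replicates 2 and 3 left out, neither of these passed (log2 -0.32, adjusted p = 0.203 for APX3330 and log2 -0.38, adjusted p = 0.141 for D100). Mesothelium, the covering of the gut's outer surface, also makes Krt7. Its 5 marker genes summed to 1.27 to 7.10 CPM in APX3330, 10.5 to 33.2, 11.2 to 19.6 and 4.45 to 9.18 CPM in saline D27, D48 and D100, and 1.54 to 5.04 CPM in Control. Msln, Upk3b and Lrrn4 of that list were higher at D27 and at D48 than in Control, and their part in the Krt7 result was not tested. The urothelial genes Upk2 and Upk3a stood below 1 CPM in every library. With Upk1a, Gata3 and Foxa1, that list of 5 summed to 99.5 to 145 CPM in APX3330 and 105 to 112 CPM in Control. In saline D27, D48 and D100 it summed to 82.6 to 84.2, 93.7 to 122 and 112 to 116 CPM. The part of this list in the Krt7 result was not tested. Krt7 overlaps the antisense gene Gm671.

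Krt18, the type I partner of Krt8, rose at D27 and D100. Its levels were 440.3, 428 and 406 CPM in APX3330. In saline they were 447, 509.6 and 434 CPM at D27, 399, 402 and 330.2 CPM at D48 and 477, 519 and 497 CPM at D100. In Control they were 367, 356 and 308 CPM. The 9 libraries of APX3330, D27 and D100 lay above the 3 of Control, while D48 overlapped it. Krt18 was higher than in Control at D27 (log2 0.43, SE 0.102, adjusted p = 0.00884) and at D100 (log2 0.53, adjusted p = 0.00177), and higher at D100 than at D48 (log2 0.40, adjusted p = 0.0179). APX3330 against Control did not pass (log2 0.31, adjusted p = 0.0546), though by DESeq2 it did (adjusted p = 0.0216). D48 against Control did not pass by either tool (log2 0.13, adjusted p = 0.360 by edgeR). With 1 Control library left after removing those with squamous transcripts, D27 (log2 0.36, adjusted p = 0.226) and D100 (log2 0.50, adjusted p = 0.109) no longer passed, and D27 also missed the threshold without saline D27 replicate 2 (log2 0.36, adjusted p = 0.0502). D100 against D48 lost its call without saline D48 replicate 3 (log2 0.31, adjusted p = 0.0780), saline D100 replicate 2 (log2 0.37, adjusted p = 0.0671) or saline D100 replicate 3 (log2 0.40, adjusted p = 0.0540).

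Relative to its partner Krt8, Krt18 was higher in the treated libraries. Per length, the ratio of Krt18 to Krt8 was 0.188 ± 0.0361 in APX3330, 0.168 ± 0.00744 at D27, 0.152 ± 0.00782 at D48, 0.206 ± 0.0248 at D100 and 0.129 ± 0.0149 in Control (SD, n = 3 each). In every treated library the ratio was above the highest Control library, at 0.143 or more against 0.142 or less. The ratio of Krt19 to Krt8 was 0.761 ± 0.0453 in APX3330, 0.748 ± 0.0213, 0.839 ± 0.0279 and 0.779 ± 0.0263 in saline D27, D48 and D100, and 0.833 ± 0.0182 in Control. No test of these ratios was run.

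Krt19, the type I keratin of the proliferative part of the crypt and of ducts, was lower in APX3330 than in Control. APX3330 libraries held 1728, 1919.8 and 2095 CPM. Libraries of saline held 2263, 2418 and 2103 CPM at D27, 2616, 2297 and 1954 CPM at D48 and 2293, 1876 and 2053 CPM at D100, and those of Control held 2424, 2440.4 and 2474 CPM. All APX3330 libraries lay below all Control libraries (log2 -0.35, SE 0.114, adjusted p = 0.0474). The call was lost in 5 of 6 fits that left out 1 library (log2 -0.42 to -0.28, adjusted p from 0.0442 to 0.144). Over the 5 groups Krt19 did not pass (adjusted p = 0.116 by edgeR). Against the saline days APX3330 gave log2 -0.24, -0.26 and -0.12 for D27, D48 and D100, and none of these passed. Without saline D48 replicate 3, APX3330 against D48 did (log2 -0.36, adjusted p = 0.0459).

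Krt20, the type I keratin of the differentiated surface cells, varied most within APX3330. Its 3 libraries had 261, 450.2 and 638 CPM. The 3 saline days had 681, 847 and 654 CPM at D27, 682, 512 and 592 CPM at D48 and 738, 615 and 732 CPM at D100, and Control had 575, 746 and 679.9 CPM. APX3330 replicate 1 was lowest of all 15, and replicate 3 lay within the range of the other groups. APX3330 did not pass against Control (log2 -0.57, SE 0.228, adjusted p = 0.104), saline D27 (log2 -0.69, adjusted p = 0.0679), D48 (log2 -0.40, adjusted p = 0.232) or D100 (log2 -0.63, adjusted p = 0.251). By DESeq2 it passed against Control (adjusted p = 0.0415) and D27 (adjusted p = 0.0132). Leaving out APX3330 replicate 3 brought APX3330 past the threshold against Control (log2 -0.91, adjusted p = 0.0135), D27 (log2 -1.03, adjusted p = 0.0264) and D48 (log2 -0.74, adjusted p = 0.0290). The surface transporter Slc26a3 also spread within the group, with 313, 696 and 892 CPM in APX3330 and 1138, 1593 and 1257 CPM in Control, as did carbonic anhydrase Car1 with 128, 294 and 552 CPM in APX3330 and 724, 781 and 1152 CPM in Control. These are 2 of 12 listed genes of colonic epithelium, named after their values were seen. Of the 12, 1 was called higher and 3 lower in APX3330 than in Control, beside 7.16% and 8.18% of all genes. Over APX3330 replicates 1 to 3 the 12 summed to 7346, 8915 and 10055 CPM. The goblet cell genes ran the other way, with 77307, 64994 and 46980 CPM. Slc26a3 and Car1 were each also called against Control at D27, D48 and D100, where Krt20 did not pass. Differing from Control was thus not particular to APX3330. A link to Krt20 was not tested.

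**Figure D2:**
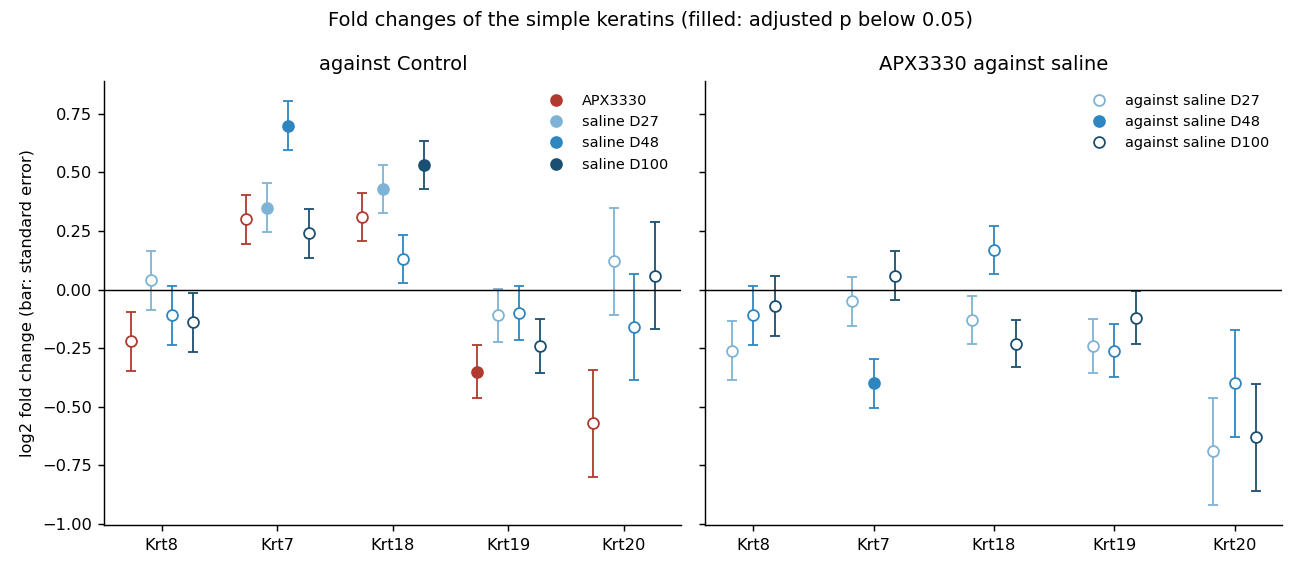
Fitted log2 fold changes (vertical axis) of the 5 simple keratins against Control (left) and of APX3330 against each saline day (right); bars are standard errors, filled points have an adjusted p below 0.05. Filled on the left are Krt7 at saline D48 (0.70) and D27 (0.35), Krt18 at D100 (0.53) and D27 (0.43), and Krt19 in APX3330 (-0.35); on the right only Krt7 against D48 (-0.40) is filled.

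As a list, the simple keratins had a median log2 fold change of -0.22 in APX3330, 0.12 at D27, -0.10 at D48 and 0.06 at D100 against Control, with 1 of 5 lower in APX3330, 2 higher at D27, 1 higher at D48 and 1 higher at D100. Of all genes, 8.18% were called lower in APX3330, and 10.2%, 14.3% and 11.4% higher at D27, D48 and D100. The medians over all genes tested lay between 0.00 and 0.02 in the same comparisons. Against saline D27, D48 and D100, the APX3330 medians were -0.24, -0.26 and -0.12, beside -0.01, -0.01 and 0.00 over all genes.

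The squamous keratins stood out in 4 of the 15 libraries. Summed over the 16 keratins of the basal, mucosal, cornified and stress classes, saline D48 replicate 2 held 2100 counts, saline D100 replicate 1 held 14455, and Control replicates 1 and 3 held 19867 and 9065. The other 11 libraries held 143 to 301 counts, and Control replicate 2 was among them with 209. None of the 4 was an APX3330 or a saline D27 library. As a share of all keratin counts they came to 1.96% in saline D48 replicate 2, 12.4% in saline D100 replicate 1, 15.2% and 7.52% in Control replicates 1 and 3, and at most 0.252% elsewhere.

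The basal keratins Krt5 and Krt14, which pair in the proliferating layer, went together. Krt5 had 373 counts in saline D48 replicate 2, 2575 in saline D100 replicate 1, and 1504 and 545 in Control replicates 1 and 3, against 0 to 13 in the other 11 libraries. For Krt14 the same libraries had 556, 3459, 1649 and 736 counts, against 5 to 47 elsewhere. Krt15, a further basal type I keratin, had 36, 236, 615 and 217 counts there and 2 to 23 elsewhere. Each of the 4 libraries was above all 11 others for these 3 genes. Trp63, a transcription factor of basal squamous cells, is 1 of 13 listed squamous genes other than keratins. It had 1.87 CPM in saline D48 replicate 2 and 12.5 CPM in saline D100 replicate 1. Control replicates 1 and 3 had 12.2 and 7.12 CPM. Summed over the 13 genes, these libraries held 377, 505, 528 and 362 CPM in that order. Saline D27 replicate 2 held 400 CPM, above saline D48 replicate 2 and Control replicate 3. Over the 5 groups, Pkp1, Dsc3, Sfn and Ly6d of the list did not pass, while Trp63, Dsg3, Lgals7, Calml3, Krtdap, Sbsn and Sprr3 did. Dsg1a and Ivl were not tested. Of all genes tested, 37.3% passed. Some members of the list may have passed the filter on low counts through the squamous libraries, so nothing is read from these calls.

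Among keratins of the upper layers, the cornifying pair Krt1 and Krt10 set Control replicates 1 and 3 apart from the saline libraries, and from Control replicate 2. Krt1 had 2 counts in saline D48 replicate 2, 195 in saline D100 replicate 1, 4448 and 2608 in Control replicates 1 and 3, and 0 to 6 elsewhere. Krt10 had 49, 268, 4080 and 1996 counts in the same order, with 27 to 44 elsewhere. Krt77, an epidermal type II keratin, was found only in Control replicates 1 and 3, with 448 and 50 counts and none in the other 13 libraries. In saline D48 replicate 2, Krt1 was within the range of the 11 libraries and Krt10 just above it.

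The mucosal pair was carried by all 4, though unevenly. Krt13 had 471 counts in saline D48 replicate 2, 4019 in saline D100 replicate 1, and 2749 and 970 in Control replicates 1 and 3, against 2 to 36 elsewhere. Its partner Krt4 had 40, 1418, 2702 and 1053 counts, against 0 to 4 elsewhere. Per length, Krt4 stood at 0.0659 times Krt13 in saline D48 replicate 2, 0.274 times in saline D100 replicate 1, and 0.762 and 0.842 times in Control replicates 1 and 3. Krt78, a type II keratin of stratified epithelium, had 33, 59, 192 and 120 counts, against 16 to 55 elsewhere. Its count in saline D48 replicate 2 was within the range of the 11.

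Of the stress keratins, Krt6a and Krt6b were high in all 4 libraries. Krt6a had 202 counts in saline D48 replicate 2, 978 in saline D100 replicate 1, and 371 and 157 in Control replicates 1 and 3, against 0 to 3 elsewhere. The near-identical Krt6b had 171, 1019, 382 and 171 counts, against 0 to 8 elsewhere, and how reads were split between the 2 is uncertain. Krt16, their type I partner, had 26, 63, 40 and 16 counts, against 0 to 15 elsewhere. Krt17 was found in all libraries, with 53 to 147 counts in the 11, 141 and 166 in the 2 saline libraries and 665 and 422 in Control replicates 1 and 3. At 9.40 CPM, saline D48 replicate 2 lay just above the highest of the 11, at 9.12 CPM.

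**Figure D3:**
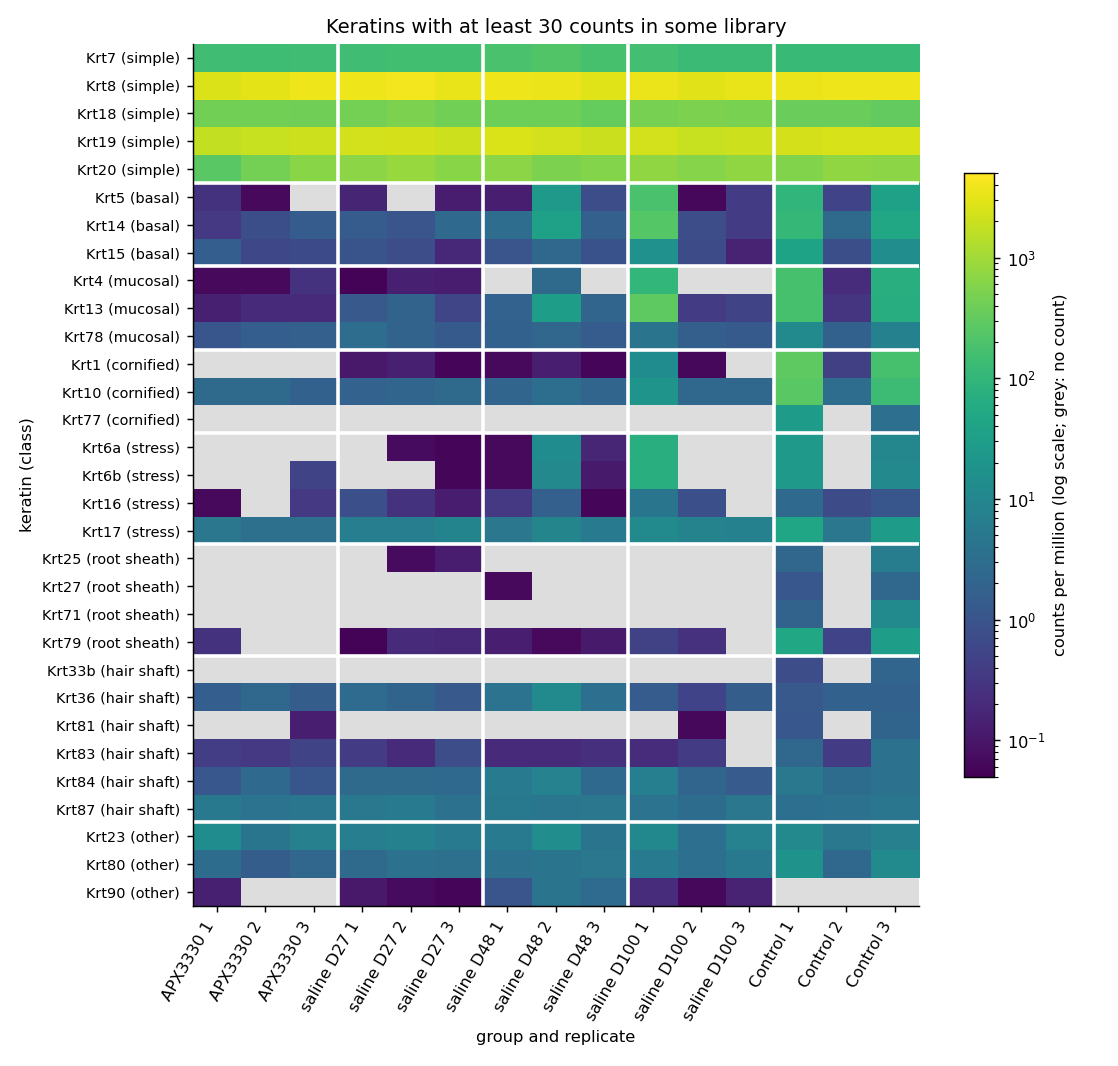
Levels in CPM (colour, log scale, grey for no count) of the 31 keratins with at least 30 counts in some library (rows, by class) in the 15 libraries (columns, by group and replicate). The simple keratins fill every column, while basal, mucosal, cornified and stress keratins stand out in saline D48 replicate 2, saline D100 replicate 1 and Control replicates 1 and 3, and root sheath and most hair shaft keratins in the last 2 alone.

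The make-up of the squamous counts differed between libraries beyond counting error. Cornified keratins were 2.43% (95% Clopper-Pearson interval 1.81% to 3.18%) of the squamous counts in saline D48 replicate 2 and 3.20% (2.92% to 3.50%) in saline D100 replicate 1. They were 45.3% (44.6% to 46.0%) and 51.4% (50.3% to 52.4%) in Control replicates 1 and 3. Basal keratins were 46.0% and 43.4% in the 2 saline libraries and 19.0% and 16.5% in the 2 Control ones. Stress keratins took 25.7% and 15.4% against 7.34% and 8.45%. These intervals cover counting error only, and the 4 libraries were picked after their values were seen.

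**Figure D4:**
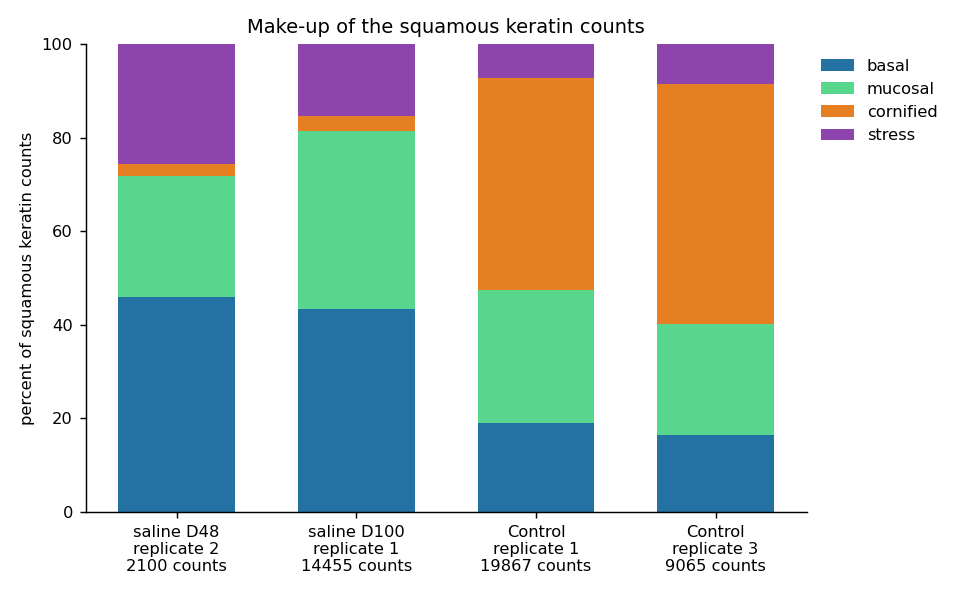
Percent of the squamous keratin counts (vertical axis) that fell to basal, mucosal, cornified and stress keratins in the 4 libraries with over 1000 such counts; the total of each library stands under its bar. The cornified share is 2.43% and 3.20% in the 2 saline libraries and 45.3% and 51.4% in the 2 Control libraries.

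Hair keratins were found with the cornified ones. Leaving out Krt36, Krt84 and Krt87, which were counted in every library, the other 23 keratins of hair shaft and root sheath summed to 972 and 1069 counts in Control replicates 1 and 3. They summed to 10 counts each in saline D48 replicate 2 and saline D100 replicate 1, and to 1 to 23 counts in the other 11 libraries. Krt79, a type II keratin of the upper follicle and its sebaceous duct, led with 759 and 477 counts in Control replicates 1 and 3. The root sheath keratin Krt71 had 31 and 183 counts there, its partner Krt25 34 and 99, and Krt27 18 and 35. Of the shaft keratins, Krt83 had 36 and 58 counts, Krt81 18 and 31, and Krt33b 12 and 32. Krt83 had 0 to 12 counts in the 11 libraries. Each shaft keratin shares much sequence with its neighbours in the family, so the split among them is uncertain. Of 5 other hair follicle genes 2 were tested. Tchh was lower than in Control in all 4 treated groups, and Lef1, which other tissues also make, was higher at D48. Of all genes, 8.18%, 9.36%, 13.0% and 10.5% were called lower in APX3330, D27, D48 and D100, and 14.3% higher at D48. Summed, the 5 genes had 6.63, 2.99 and 17.1 CPM in Control replicates 1, 2 and 3, and 8.36 CPM in saline D48 replicate 3. The Tchh calls may rest on Control replicates 1 and 3, which was not tested, and nothing is read from them.

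The tests of these keratins against Control rest on 2 of its 3 libraries. Krt10, at 2.39 ± 0.508 CPM in APX3330 and 133 ± 129.7 CPM in Control (SD, n = 3 each), gave log2 -5.79, adjusted p = 0.00299. At D27, D48 and D100 Krt10 averaged 2.23 ± 0.453, 2.51 ± 0.654 and 7.88 ± 9.57 CPM, with log2 -5.89, -5.73 and -4.08 against Control. Krt1 had no count in APX3330 and 7062 in Control. Pooled over the libraries of a group, it was at least 2481-fold lower in APX3330, taking 3 counts over the group as the floor. Control replicate 2 held 6 of the 7062 counts, so this bound rests on Control replicates 1 and 3 and leaves out the spread between libraries. Krt17 averaged 3.96 ± 0.724 CPM in APX3330 and 25.2 ± 19.2 CPM in Control (log2 -2.67, adjusted p = 0.00343). Krt4, Krt13, Krt15, Krt78 and Krt83 were the other squamous or hair keratins lower in APX3330 than in Control. Krt17, Krt10, Krt78, Krt83 and Krt1 were lower than in Control in all 4 treated groups, Krt15 and Krt4 in all but D100, and Krt5 at D27 alone. None of these calls held without Control replicates 1 and 3 and saline D100 replicate 1, in fits with 1 Control library. There Krt17 turned to log2 0.69, 0.45 and 0.77 at D27, D48 and D100, Krt15 to 0.22 and 0.83 in APX3330 and at D48, Krt83 to 0.21 and 0.28 in APX3330 and at D27, Krt78 to 0.25 and 0.03 at D27 and D48, and Krt4 to 1.94 at D48.

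Krt36, Krt84 and Krt90 differed between D48 and other groups. Krt36, a type I keratin of the hair keratin family, had 1.55, 2.47 and 1.47 CPM in APX3330. Saline libraries had 2.84, 2.07 and 1.24 CPM at D27, 3.97, 11.9 and 3.43 CPM at D48 and 1.41, 0.513 and 1.50 CPM at D100, and Control had 1.22, 1.83 and 1.80 CPM. The 3 D48 libraries were the 3 highest, and replicate 2 among them stood far above. Krt36 was higher at D48 than in Control (log2 1.99, SE 0.500, adjusted p = 0.00807) and lower in APX3330 (log2 -1.81, adjusted p = 0.0188) and at D100 (log2 -2.49, adjusted p = 0.00621) than at D48. Without saline D48 replicate 2, D48 against Control (log2 1.19, adjusted p = 0.0728) and APX3330 against D48 (log2 -1.02, adjusted p = 0.147) no longer passed. APX3330 against D48 also lost its call without replicate 1 (log2 -1.70, adjusted p = 0.0584) or replicate 3 (log2 -1.67, adjusted p = 0.0706) of APX3330. Without saline D48 replicates 2 and 3, D100 against D48 was lost as well (log2 -1.80, adjusted p = 0.103).

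Krt90, a gene of the type II keratin cluster on chromosome 15, was counted almost only at D48. It had 2, 0 and 0 counts in the APX3330 libraries. Saline libraries had 2, 1 and 1 counts at D27, 16, 64 and 48 at D48 and 3, 1 and 2 at D100, and Control had none. Each D48 library was above all 12 others. Against Control, D48 was at least 38.9-fold higher on counts pooled over the libraries of a group (128 counts, with 3 over the group as the floor). By edgeR it was also higher at D48 than at D27 (log2 4.91, adjusted p = 0.0129) and lower at D100 than at D48 (log2 -4.19, adjusted p = 0.00403). APX3330 had 2 counts against 128 at D48, a ratio of 0.0166 (95% counting interval 0.00199 to 0.0611). This interval is of counts pooled over libraries and leaves out the spread between them. The edgeR test between libraries gave adjusted p = 0.00108. DESeq2 gave Krt90 no adjusted p at D48 against D27 or at D100 against D48. The call against D27 was lost without D27 replicate 2 (log2 4.82, adjusted p = 0.0772) or 3 (log2 4.76, adjusted p = 0.0889) or D48 replicate 3 (log2 4.88, adjusted p = 0.0501). The larger D48 counts, 64 and 48, were in replicates 2 and 3, which also held pancreatic transcripts, and replicate 1 had 16. Without those 2 libraries the D48 value, now 1 library assumed to vary like the other groups, kept its call against Control (adjusted p = 0.0289) and lost it against D27 (adjusted p = 0.435), in APX3330 against D48 (adjusted p = 0.101) and at D100 against D48 (adjusted p = 0.260). Krt90 overlaps the antisense gene Gm44393, whose reads could not be separated.

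Krt84, a type II hair keratin, was lower in APX3330 than at D48. The APX3330 libraries had 1.15, 2.60 and 1.07 CPM. Those of saline had 2.62, 2.62 and 2.54 CPM at D27, 5.42, 8.26 and 2.56 CPM at D48 and 7.28, 2.18 and 1.35 CPM at D100, and those of Control 4.95, 2.99 and 3.66 CPM. The APX3330 and D27 libraries lay below those of Control, the other pairs of groups overlapped, and saline D100 replicate 1 lay between the upper 2 D48 libraries. APX3330 was lower than D48 (log2 -1.74, SE 0.557, adjusted p = 0.0385), a call lost in 4 of 6 fits that left out 1 library (adjusted p up to 0.155). D48 against Control did not pass (log2 0.48, adjusted p = 0.537).

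**Figure D5:**
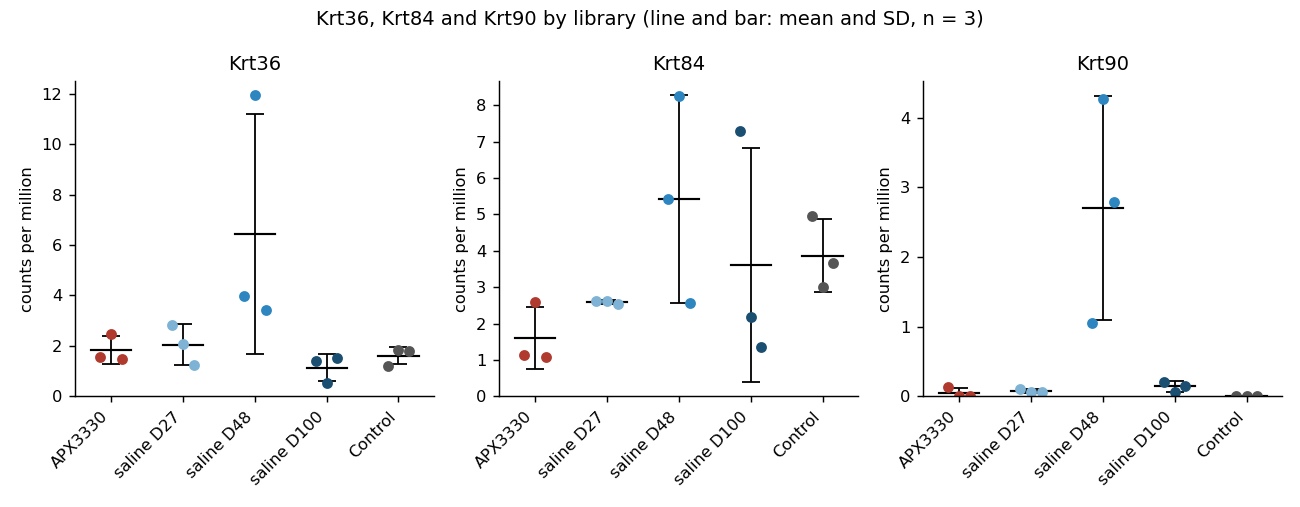
Levels of Krt36, Krt84 and Krt90 in CPM (vertical axes, from 0) by group; points are libraries in the order of replicates 1 to 3, lines and bars the mean and SD of 3. The saline D48 libraries of Krt90 (1.06, 4.26 and 2.79 CPM) stand above all others, and for Krt36 and Krt84 replicate 2 of saline D48 is highest.

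The remaining keratins with a measurable level were spread over all groups. Krt23, a type I keratin of epithelial cells, ranged from 3.33 to 13.9 CPM over the 15 libraries and did not pass in any comparison. Krt87, a hair keratin by name, ranged from 2.95 to 6.06 CPM and did not pass either, nor did Krt222 with 0.268 to 1.35 CPM. Krt80, a type II keratin of several epithelia, had 1.47 to 5.58 CPM in 13 libraries and 17.4 and 12.2 CPM in Control replicates 1 and 3. It was lower than in Control in APX3330 (log2 -2.27, adjusted p = 0.00728) and at D27 (log2 -1.68, adjusted p = 0.0241). The D27 call was lost in 5 of 6 fits that left out 1 library (adjusted p up to 0.143), and without the squamous libraries Krt80 turned to log2 0.49. Krt74 had no count in any library, and the keratins not named so far had at most 23 counts in a library.

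Genes that work with keratins were read from lists. Desmosomes and plakins tie keratin filaments to cell junctions, and all 10 members of that list were tested. In APX3330 against Control Dsc2 was higher and Dsg2 and Pkp3 were lower (median log2 -0.32, beside 0.02 over all genes). At D27 Dsg2 and Ppl were lower, and at D48 and D100 Dsc2 alone was higher. Of all genes, 7.16% were called higher and 8.18% lower in APX3330 than in Control. These shares were 10.2% and 9.36% at D27, 14.3% and 13.0% at D48, and 11.4% and 10.5% at D100. With 10 members, nothing is read from the counts called in this list. The desmocollin Dsc2 had 163, 169.6 and 192 CPM in APX3330. In saline it had 146, 139.8 and 164 CPM at D27, 179, 196 and 185 CPM at D48 and 241, 223 and 240 CPM at D100, and in Control 122, 151 and 135 CPM. The D100 libraries were highest and lay apart from all others. Dsc2 was higher than in Control in APX3330 (log2 0.36, adjusted p = 0.0222), at D48 (log2 0.46, adjusted p = 0.00318) and at D100 (log2 0.79, adjusted p = 7.04e-05), and higher at D100 than at D27 or D48. Its partner, the desmoglein Dsg2, averaged 375 ± 55.7 CPM in APX3330, 368 ± 20.6 CPM at D27 and 493 ± 37.0 CPM in Control (SD, n = 3 each), and was lower in APX3330 (log2 -0.39, adjusted p = 0.0212) and at D27 (log2 -0.42, adjusted p = 0.0121) than in Control.

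The plakophilin Pkp3 averaged 97.3 ± 9.49 CPM in APX3330 and 129 ± 6.31 CPM in Control (log2 -0.41, adjusted p = 0.0342). Periplakin, Ppl, followed the squamous libraries, with 56.6 CPM in saline D100 replicate 1 and 68.6, 16.4 and 46.7 CPM in Control. Dsp, Jup, Pkp2, Evpl, Plec and Dst did not pass in any of the 10 comparisons.

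Other intermediate filament proteins are made by muscle, nerve and connective tissue, and the lamins by all cells. Of 11 tested, 6 were lower in APX3330 than in Control, where 8.18% of all genes were. At D27 edgeR called 0 of them, with 1 at an unadjusted p below 0.05. At D48 2 rose and 3 fell, beside 14.3% of genes higher and 13.0% lower, and at D100 5 fell, beside 10.5% of genes lower. Desmin, Des, of muscle averaged 884 ± 91.8 CPM in APX3330, 1423 ± 208, 906 ± 70.9 and 982 ± 129 CPM in saline D27, D48 and D100, and 1602 ± 76.7 CPM in Control. Synm, which joins desmin filaments, averaged 238 ± 51.3, 372 ± 82.9, 232 ± 30.4, 285 ± 38.3 and 435 ± 23.4 CPM in the same order. Both were lower than in Control in APX3330, at D48 and at D100 (log2 -0.86, -0.82 and -0.71 for Des and -0.87, -0.91 and -0.61 for Synm). Vimentin, Vim, of connective tissue and immune cells was highest at D48 with 392 ± 37.7 CPM, against 208 ± 16.3 CPM in APX3330 and 278 ± 23.3 CPM in Control, and was called higher at D48 than in Control (log2 0.50, adjusted p = 0.00799) and lower in APX3330 than at D48 (log2 -0.92, adjusted p = 0.000344). Peripherin, Prph, of nerves averaged 8.44 ± 1.43 CPM in APX3330 and 16.5 ± 1.69 CPM in Control (log2 -0.97, adjusted p = 0.00124).

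Proteins of the cornified envelope, which cross-link to keratins in dying squamous cells, were read from a list of 15, of which 12 were tested. Of these, 9 were lower than in Control in APX3330, at D27 and at D48, and 4 at D100, beside 8.18%, 9.36%, 13.0% and 10.5% of all genes called lower. Most of them passed the filter on low counts through the squamous libraries, so nothing is read from these counts. Loricrin, Lor, had 2.61 CPM in saline D100 replicate 1 and 98.9, 0.511 and 39.1 CPM in Control. Suprabasin, Sbsn, had 2.19 CPM in saline D100 replicate 1 and 26.4, 2.41 and 15.5 CPM in Control, and Krtdap had 5.58 CPM in saline D100 replicate 1 and 33.2, 0.219 and 15.1 CPM in Control. These 3 genes were highest in Control replicates 1 and 3. Others of the list were highest elsewhere or spread further, such as Tgm1 with 23.0 CPM in saline D100 replicate 1 and 8.75, 1.10 and 5.26 CPM in Control. The transglutaminase Tgm3 was abundant in every library. It had 1136, 1240 and 1638 CPM in APX3330. The saline libraries had 1291, 759 and 1196 CPM at D27, 1034, 715 and 734 CPM at D48 and 667, 599 and 543 CPM at D100, and Control had 2246, 2277 and 1857 CPM. Every treated library lay below every Control library, replicate 2 included, and D100 was lowest. Tgm3 fell against Control in APX3330 (log2 -0.67, adjusted p = 0.0304), at D27 (log2 -0.98, adjusted p = 0.00337), at D48 (log2 -1.36, adjusted p = 0.000213) and at D100 (log2 -1.82, adjusted p = 2.45e-05). It was higher in APX3330 than at D48 (log2 0.69, adjusted p = 0.0214) and at D100 (log2 1.15, adjusted p = 0.0200), and lower at D100 than at D27 (log2 -0.84, adjusted p = 0.0319).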

How the data were processed

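Total RNA of 15 mouse colon libraries was analysed from the gene counts deposited by the authors, whole numbers for 56859 genes, none without a gene name. GRCm38 and mm10 are named in the submitters' processing notes, while the sources used here do not give the aligner, the counter or the strand setting. Gene positions and lengths come from GENCODE M21. Library totals were 13548661 to 17919613 counts.

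Genes were filtered with filterByExpr, scaled with TMM and tested with edgeR 4.0.16 (R 4.3.3) by the quasi-likelihood test in 1 fit over 5 groups, with 10 pairwise comparisons and Benjamini-Hochberg adjustment over 18038 genes at 0.05. Every adjusted p in the text is from that test unless DESeq2 is named. The procedure was tested on simulated data. DESeq2 1.42.0, other scaling, no filter, 2 groups alone, a replicate block, each library left out and the removal of libraries with squamous or pancreatic transcripts were alternatives, the removal of 4 squamous libraries being chosen after the data were seen. Shares carry exact binomial intervals. Python 3.11.15 with matplotlib 3.10.9 made the plots.

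The members and lists were chosen with earlier results of these data known. The 5 simple keratins, other keratins with at least 30 counts in a library or a call, and up to 4 genes of each partner list by the test over 5 groups are named. Slc26a3 and Car1 were named after their values were seen. No library of a group was identical to another. Near-identical keratins (Krt6a and Krt6b, Krt33a and Krt33b, Krt81, Krt83 and Krt86, Krt14, Krt16 and Krt17) and antisense genes overlapping 12 keratins may share reads.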

Additional observations from a re-analysis of the deposited data

How the results depend on the processing

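Counts of called keratins depended on which libraries and genes were kept. Of 140 counts under alternatives, 78 stayed within 1.5 times of the reported count and 62 did not. DESeq2 size factors left every count as reported. With no filter on low counts, more keratins were tested, and 27, 28, 26 and 21 were called in APX3330, D27, D48 and D100 against Control, 2, 10 and 12 in APX3330 against D27, D48 and D100, 7 and 9 in D48 and D100 against D27, and 14 in D100 against D48. DESeq2's test called 16 in APX3330 against Control, 2, 7 and 5 in APX3330 against D27, D48 and D100, and 2 and 4 in D48 and D100 against D27. Fits of the 2 groups alone called 3 in D100 against Control, 1 and 2 in APX3330 against D27 and D48, and 2 in D100 against D48. The cause was not tested for DESeq2 and for the fits of 2 groups.

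Removing the 3 libraries with squamous transcripts left 0, 0, 2 and 0 called in APX3330, D27, D48 and D100 against Control and 9 in APX3330 against D48. Removing 4 left 0, 0, 2 and 0 against Control, 2 in APX3330 against D27, 2 in APX3330 against D48 and 2 in D100 against D48. Removing the 2 libraries with pancreatic transcripts gave 17, 3 and 10 in D27, D48 and D100 against Control and 0 in APX3330 against D48, D48 against D27 and D100 against D48. Leaving out each of 6 libraries gave 4 to 20 in APX3330, 3 to 20 in D27, 6 to 20 in D48 and 2 to 16 in D100 against Control, 0 to 1 and 1 to 5 in APX3330 against D27 and D48, 0 to 1 in D48 against D27 and 2 to 4 in D100 against D48.

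The labels do not say whether replicate numbers pair samples, and the main fit did not pair them. Of 30 correlations between deviations of same-numbered libraries, 2 passed 0.1 (range -0.14 to 0.25). These were 0.25 and 0.18 in D100 against Control. Weak correlations do not show that samples were unpaired. With a replicate block the counts were 8, 9, 8 and 5 in APX3330, D27, D48 and D100 against Control, 4 in APX3330 against D48, 1 in D48 against D27, 5 in D100 against D48 and 0 in the others.

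For single keratins, 964 of 1209 values under alternatives kept direction and call, 190 lost the call, 15 gained one and 40 turned direction. Turned values without the 3 and without the 4 squamous libraries were, against Control, 0.22 and 0.23 for Krt15 and 0.21 and 0.22 for Krt83 in APX3330. At D27 they were 0.69 and 0.70 for Krt17, 0.25 and 0.27 for Krt78, 0.49 and 0.51 for Krt80, 0.28 and 0.29 for Krt83, and -0.05 and -0.04 for Krt20. At D48 they were 0.45 and 0.14 for Krt17 and 0.83 and 0.30 for Krt15, with 0.03 for Krt78 and 1.94 for Krt4 without the 3 alone, and at D100 0.77 and 0.78 for Krt17 and -0.16 and -0.15 for Krt20. Without the pancreatic libraries, Krt8, Krt19 and Krt20 gave 0.06, 0.10 and 0.04 at D48 against Control and Krt8 0.01 against D27. Leaving out 1 library turned values near 0 only. Krt8 ranged from -0.20 to 0.03 in APX3330 against D100, -0.02 to 0.12 in D27 and -0.22 to 0.01 in D48 against Control, and -0.16 to 0.05 (0.02 without D100 replicate 2) in D100 against D48. Krt19 ranged from -0.23 to 0.01 in D48 against Control and -0.09 to 0.12 (-0.03 without D27 replicate 3) against D27. Krt20 ranged from -0.14 to 0.06 (0.01 without D100 replicate 2) in D100 against D27 and -0.04 to 0.15 against Control, and Krt7 from -0.00 to 0.19 in APX3330 against D100. Depth limits the keratins with few counts, of which 29 could not be tested.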

Other observations

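Keratin-associated proteins, the matrix proteins that embed hair keratins, were counted from 58 Krtap genes. The 12 treated libraries and Control replicate 2 had 11 to 63 counts over 2 to 7 genes. Control replicate 1 had 90 counts over 22 of the genes and Control replicate 3 had 296 counts over 41. Krt8-ps, a pseudogene of Krt8, had 46 to 51 counts in APX3330 libraries, 39 to 62, 48 to 55 and 70 to 104 counts in saline D27, D48 and D100 libraries, and 64 to 75 counts in Control libraries.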
